A study of Mus musculus with 8 samples.

Results

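This account concerns 37 genes from families of enzymes that cut the extracellular matrix and cell surface proteins, and from their inhibitors. They were measured in the lungs of mouse pups with a switchable Fgf18 transgene. They were chosen by gene symbol, with earlier results of these data known. They are 12 matrix metalloproteases (MMPs), 10 ADAMs, 9 ADAMTS proteases, 5 inhibitors and the serine protease Fap. Of the 37, 36 had a probe set annotated to that symbol alone, among 18193 such genes on the array, and Mmp15 had none in the annotation used here. The brightest probe set stood for each gene. A floor at log2 intensity 6.51 (the 40th percentile of all probe sets) left 31 of them among the 12856 genes tested, and Mmp3, Mmp12, Mmp13, Mmp19 and Adam28 lay below it.

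Total lung RNA of 8 FVB/N pups was hybridised to Affymetrix arrays, 1 array per pup, as 4 cases (D04, D34, D48 and D52) and 4 controls (D02, D40, D50 and D58). All 8 carry the same genotype entry, which names SP-C-rtTA and (teto)7-FGF18. The surfactant protein C promoter thus places rtTA, an activator that works with doxycycline, in distal lung epithelium, and rtTA acts on the tet-operator FGF18 cassette. The pups were single or double transgenic, came as pairs from 4 litters and were picked by transgene induction, and the labels leave out which pups were littermates, how old they were and when doxycycline was given. Lung tissue was extracted in bulk, so fewer cells of a type and less RNA per cell cannot be told apart.

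Array medians lay between log2 7.02 and 7.12, and arrays correlated at 0.983 to 0.996. Fgf18 itself read 10.82, 12.09, 9.82 and 7.66 in D04, D34, D48 and D52 among the cases, against 7.05, 7.76, 7.11 and 7.07 in the controls (in the order D02, D40, D50, D58). The difference was 2.85 (two-sided exact permutation p = 0.0571 over 70 arrangements), and 3.66 without D52. The pups were picked by transgene induction, so that p describes the groups and supports nothing further. It also takes no account of litters. For Fgf18 the library labelled Case D52 lay within the control range, through control D40, and this goes against its label. The members and lists are therefore described with and without it. For Abca3 it stood with the cases, at 10.27 beside 10.49 to 10.65 in the other cases, against 11.34 to 11.56 in controls. For Adm, Dcn, Gm2102 and Wnt2, which passed the adjusted threshold only without D52, it was nearer to the controls. By Xist and Eif2s3y levels, cases D04 and D34 and control D02 were female, the rest male. The labelled tissue was borne out by lung markers, with Sftpd at 12.30 ± 0.023 in cases and 12.47 ± 0.13 in controls (SD, n = 4 each).

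MMPs are zinc proteases made as inactive precursors, and together they can cut collagens, elastin, laminins and proteoglycans. ADAMs sit in the cell membrane, and many but not all release growth factors, cytokines and receptor ectodomains. ADAMTS enzymes are secreted and cut proteoglycans such as versican and aggrecan or trim procollagens. The tissue inhibitors of metalloproteases (TIMPs) and the membrane-anchored protein Reck block them. In the growing lung these enzymes take part in airway branching and in the thinning of the walls between airspaces, and mice without Mmp14, Adam17 or Timp3 have abnormal airspaces. FGF receptors signal through ERK kinases to transcription factors of the ETS and AP-1 families, which bind motifs known from several MMP promoters.

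Over all 8 pups no member passed the limma test after Benjamini-Hochberg adjustment across all genes: the smallest adjusted p was 0.736. One gene of the 12856 did (0.00778%), the lipid transporter Abca3. An unadjusted limma p under 0.05 is a description and not a call. At that threshold 8 of 31 members stood out, or 7 of 30 without Fap, against 6.29% of all genes. The members were chosen with earlier results known, so no count above the share of all genes, here or below, supports anything. Adam12, Adam19, Adamts9 and Adamts12 were higher in cases (4 of 31, against 2.08% of all genes), and Adamts5, Adamts8, Adamts15 and Fap were lower (4 of 31, against 4.22% of all genes). Fap passed the intensity floor only through the controls, where it is high (mean 6.17 in cases and 7.20 in controls), so its count supports nothing, and 3 of 30 members were lower without it. The MMPs and inhibitors tested had differences from -0.26 to 0.32.

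Without the library labelled Case D52 again no member passed, with Adam12 nearest at an adjusted p of 0.101. Across all genes 6 passed (0.0467%): Abca3, Adm, Dcn, Fgf18, Gm2102 and Wnt2. D52 was left out for its Fgf18 level, so the passing of Fgf18 follows from that choice and supports nothing. At an unadjusted p under 0.05 stood 14 members, or 13 of 30 without Fap, against 12.7% of all genes. Mmp2 and Reck joined those that were higher (6 of 31, against 4.57% of all genes), and Mmp14, Mmp23, Timp1 and Adam8 joined those that were lower (8 of 31, or 7 of 30 without Fap, against 8.13% of all genes). The 2 fits share 7 pups, so the second is no independent support for the first. The unadjusted count over all 8 pups was 5 without control D40 and also 5 without control D58. With arrays weighted by their reliability in limma and D52 left out, 4 members passed the adjusted threshold, Adam12, Adamts5, Adamts15 and Fap (4 of 31, or 3 of 30 without Fap, against 1.54% of all genes).

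**Figure D1:**
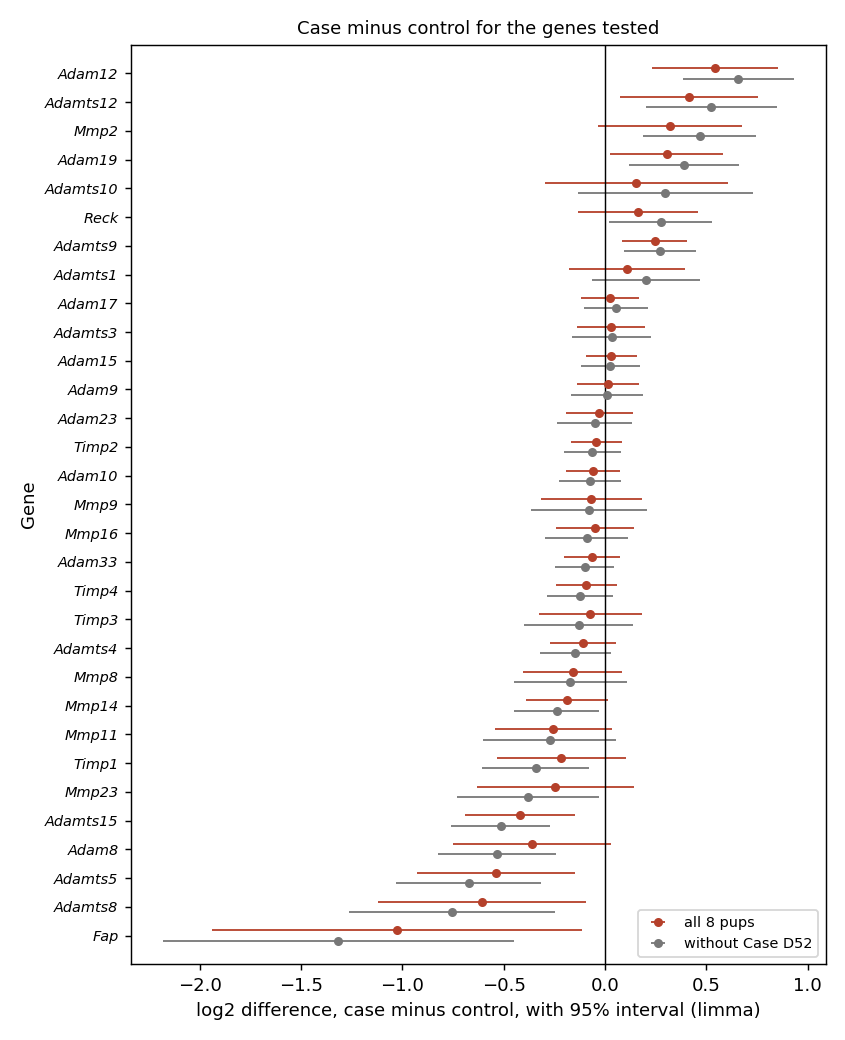
Difference in log2 intensity, case minus control, for the 31 members tested (horizontal axis, 95% limma interval as bars), over all 8 pups (red) and without Case D52 (grey), ordered by the difference without Case D52. Adam12 stands at the top at 0.54 over all 8 pups and Fap at the bottom at -1.03, and the intervals of 23 members cross 0 in the fit of all 8 pups.

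The median difference of the 31 members was -0.058 over all 8 pups, with 19 below 0 and 12 above, beside -0.013 over all genes. Their median size without regard to sign was 0.159, against 0.0733 over all genes, and without D52 it was 0.238 against 0.0915. Within groups their median SD was 0.166 in cases and 0.109 in controls, beside 0.130 in cases and 0.0977 in controls over all genes.

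Pup by pup, D34 had the most members outside the control range. In D34, 10 of 31 members lay above every control (26% of all genes). Below every control lay 17, or 16 of 30 without Fap (38.3%). In D04, 9 lay above (17.3%) and 13 below, or 12 of 30 without Fap (23%). In D48, 9 lay above (32.1%) and 15 below, or 14 of 30 without Fap (26.3%). In D52, 5 lay above (16%) and 5 below (18.7%). Of the 14 members that stood out without D52, that pup lay within the control range for 9. It lay on the same side as the other cases for Adamts9 and Adamts5, and beyond the controls on the opposite side for Mmp2, Reck and Timp1.

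**Figure D2:**
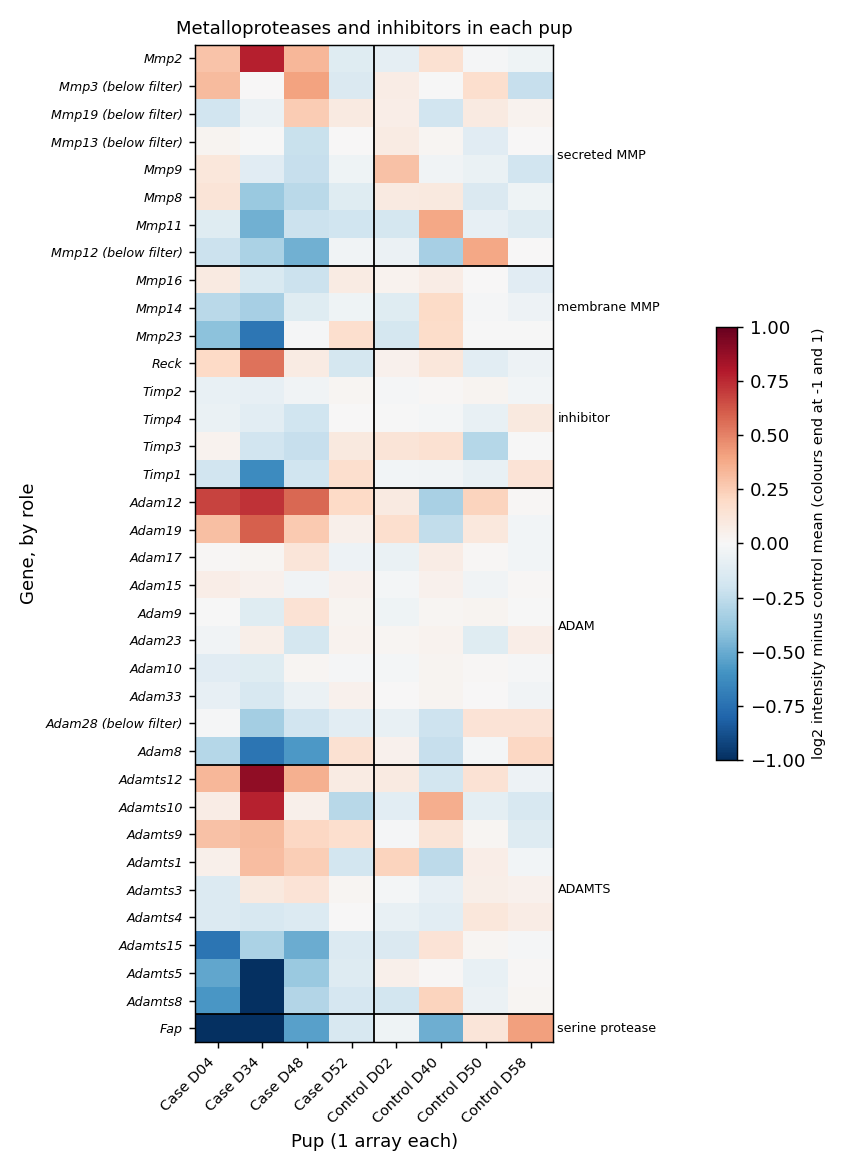
Log2 intensity minus the control mean (colour, with red higher and blue lower, ending at 1 and -1) for the 36 members measured, in 8 pups, with cases left and controls right and genes in blocks by role. Case D34 holds the deepest colours in both directions, among them Fap, Adamts5 and Adamts8 below -1, while Case D52 is pale for most genes.

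The secreted MMPs had no common direction. Below, log2 intensities follow the order D04, D34, D48, D52 for cases and D02, D40, D50, D58 for controls, and brackets after a log2 difference, case minus control, hold its 95% interval and the adjusted p from limma. Mmp2 (gelatinase A), made by mesenchymal cells and active on gelatin and basement membrane collagen, read 11.91, 12.41, 11.96 and 11.50 in cases, against 11.54, 11.78, 11.61 and 11.59 in controls. Its 3 values in D04, D34 and D48 lay above every control and D52 below every control. The difference was 0.32 (-0.037 to 0.67, adjusted p = 0.736) over all 8 pups and 0.47 (0.19 to 0.75, adjusted p = 0.192) without D52, folds of 1.25 and 1.38, but 0.16 without D34. Its second probe set differed by 0.33 over all 8 pups and 0.49 without D52.

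Mmp8, the neutrophil collagenase, read 7.22, 6.72, 6.82 and 6.97 in cases, against 7.18, 7.19, 6.95 and 7.05 in controls. The groups overlapped, with D04 highest of all. Its difference was -0.16 (-0.40 to 0.085, adjusted p = 0.741) over all 8 pups, -0.17 (-0.45 to 0.11, adjusted p = 0.579) without D52, and 0.074 with array weights. Mmp9 (gelatinase B), which neutrophils also store, read 6.97, 6.74, 6.62 and 6.81 in cases, against 7.15, 6.82, 6.79 and 6.66 in controls, and again the groups overlapped. Its difference was -0.069 (-0.32 to 0.18, adjusted p = 0.880) over all 8 pups and -0.079 (-0.36 to 0.21, adjusted p = 0.814) without D52, but 0.025 with array weights. Mmp11 (stromelysin-3), a stromal enzyme of remodelling tissue, differed by -0.26 (-0.55 to 0.033, adjusted p = 0.736) over all 8 pups and -0.27 (-0.60 to 0.056, adjusted p = 0.463) without D52, with control D40 at 9.36 far above the other 3 controls.

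The secreted enzymes Mmp3, Mmp12, Mmp13 and Mmp19 lay below the intensity floor and were not tested. Mmp3 (stromelysin-1), which cuts proteoglycans and activates other MMPs, read 4.72, 4.41, 4.81 and 4.26 in cases, against 4.48, 4.41, 4.57 and 4.18 in controls. Mmp12, the elastase of macrophages, read 5.03, 4.93, 4.76 and 5.22 in cases, against 5.19, 4.91, 5.64 and 5.25 in controls. Mmp13 (collagenase 3), known from cartilage and bone, read 3.78, 3.74, 3.53 and 3.76 in cases, against 3.83, 3.77, 3.64 and 3.75 in controls. For all 3 the groups overlapped, and their differences were 0.14, -0.26 and -0.049. Mmp19 read between 6.11 and 6.56 in the 8 pups and differed by 0.022. Without D52 the differences of Mmp3, Mmp12, Mmp13 and Mmp19 were 0.24, -0.34, -0.068 and 0.000578.

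Among the membrane MMPs each tested gene had a negative difference. Mmp14 (MT1-MMP), the membrane collagenase that activates the Mmp2 precursor together with Timp2, read 11.24, 11.18, 11.39 and 11.47 in cases, against 11.38, 11.70, 11.50 and 11.45 in controls. D04 and D34 lay below every control, and D48 and D52 lay inside the control range. The difference was -0.19 (-0.39 to 0.013, adjusted p = 0.736) over all 8 pups and -0.24 (-0.45 to -0.028, adjusted p = 0.339) without D52, the opposite sign to Mmp2 in both fits.

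Mmp23, anchored through its amino-terminal end, read 8.13, 7.82, 8.53 and 8.71 in cases, against 8.36, 8.73, 8.54 and 8.54 in controls. D04 and D34 again lay below every control, and D52 was just under the highest control. The difference was -0.25 (-0.63 to 0.14, adjusted p = 0.751) over all 8 pups and -0.38 (-0.73 to -0.032, adjusted p = 0.357) without D52, but -0.087 without D34. Mmp16 (MT3-MMP) differed by -0.049 (-0.24 to 0.14, adjusted p = 0.890) over all 8 pups and -0.091 (-0.30 to 0.11, adjusted p = 0.698) without D52.

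The inhibitors differed little, apart from Timp1 and Reck once D52 was left out. Timp1, a secreted inhibitor induced by cytokines and growth factors, read 8.09, 7.65, 8.09 and 8.45 in cases, against 8.26, 8.25, 8.21 and 8.43 in controls. The first 3 cases lay below every control, whereas D52 lay above every control. The difference was -0.22 (-0.53 to 0.10, adjusted p = 0.740) over all 8 pups and -0.34 (-0.61 to -0.079, adjusted p = 0.278) without D52, but -0.076 without D34. Reck, which restrains MMP2, MMP9 and MT1-MMP at the cell surface, read 10.29, 10.63, 10.17 and 9.92 in cases, against 10.13, 10.20, 9.99 and 10.04 in controls. D04 and D34 were above every control, D48 lay among them and D52 was below all 4. Its difference was 0.16 (-0.13 to 0.46, adjusted p = 0.781) over all 8 pups and 0.27 (0.019 to 0.53, adjusted p = 0.364) without D52, but 0.037 without D34.

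Timp2, the partner of Mmp14 in activating Mmp2, read 12.05, 12.03, 12.08 and 12.14 in cases, against 12.11, 12.13, 12.15 and 12.09 in controls. The spread between pups was small and the groups overlapped only through D52. Its difference was -0.043 (-0.17 to 0.082, adjusted p = 0.846) over all 8 pups and -0.064 (-0.20 to 0.076, adjusted p = 0.693) without D52. Timp3, which is bound to the matrix and also blocks ADAM17, read 11.56, 11.32, 11.29 and 11.62 in cases, against 11.65, 11.67, 11.24 and 11.52 in controls. The groups overlapped, its 4 probe sets above the floor differed in sign, and the difference was -0.072 (-0.33 to 0.18, adjusted p = 0.877) over all 8 pups and -0.13 (-0.40 to 0.14, adjusted p = 0.677) without D52. It was 0.064 with array weights. Timp4, known best from heart, read 6.84, 6.81, 6.71 and 6.91 in cases, against 6.91, 6.89, 6.83 and 7.01 in controls, with overlapping groups and a difference of -0.092 (-0.24 to 0.060, adjusted p = 0.763) over all 8 pups and -0.12 (-0.29 to 0.041, adjusted p = 0.506) without D52.

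**Figure D3:**
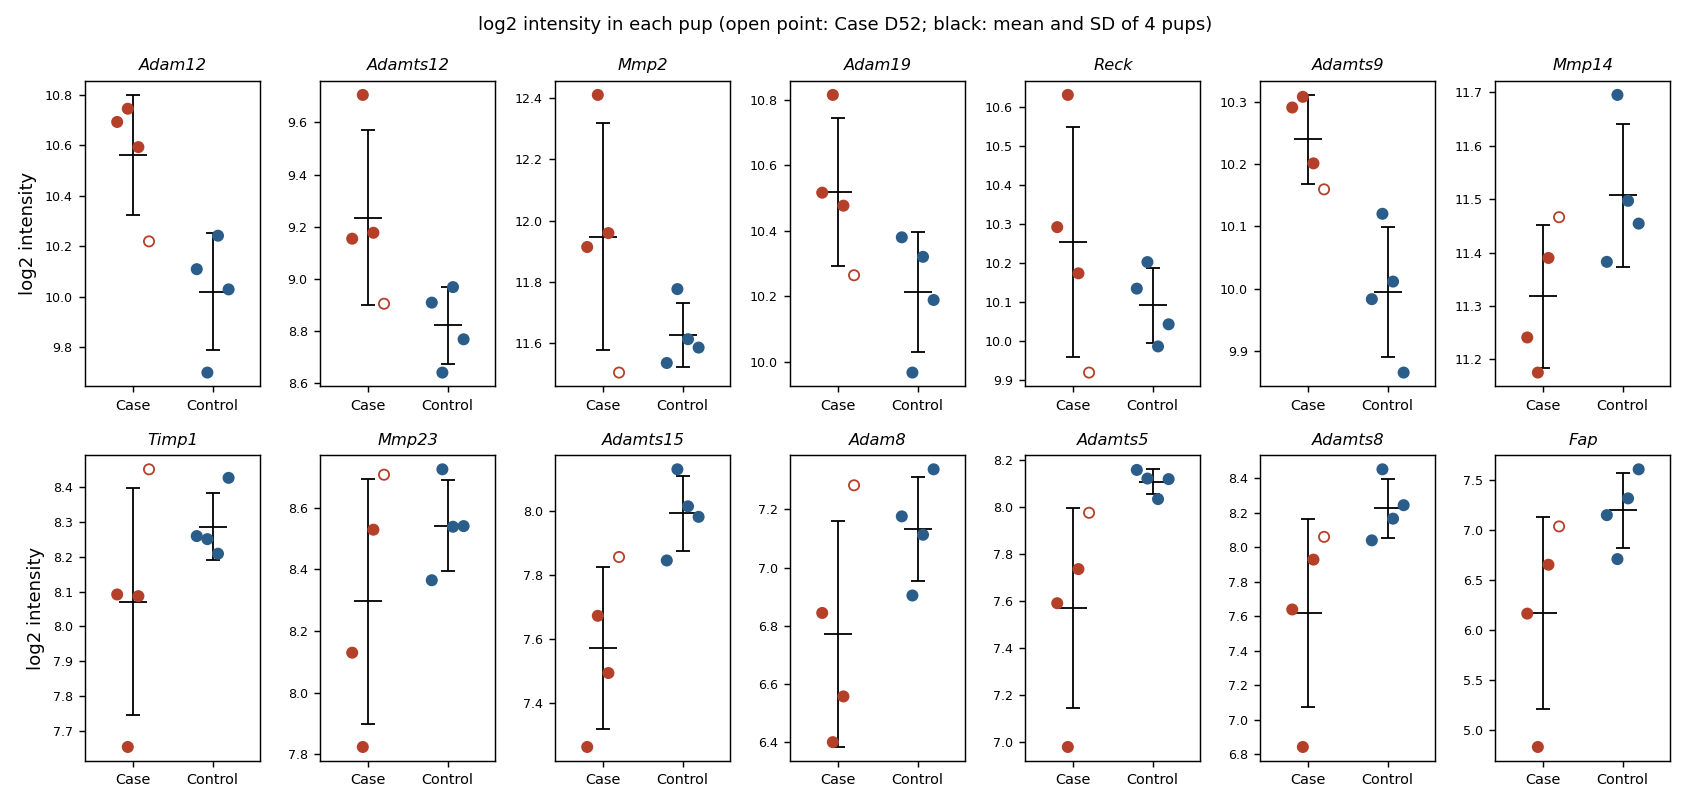
Log2 intensity (vertical axes, each with its own range) in each pup for the 14 members with an unadjusted limma p under 0.05 in either fit, cases left and controls right, with black bars for mean and SD of 4 pups. The open point, Case D52, sits at or near the controls in most panels, and Adam12 shows 3 cases from 10.59 to 10.75 above controls from 9.70 to 10.24.

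Of the 9 ADAMs tested, Adam12 and Adam19 were the ones with positive differences above 0.1. Adam12 (meltrin alpha), a protease of mesenchymal and muscle precursor cells that releases HB-EGF and cuts IGF-binding proteins, read 10.69, 10.75, 10.59 and 10.22 in cases, against 10.11, 9.70, 10.24 and 10.03 in controls. D04, D34 and D48 lay above every control, and D52 lay just below the highest control. Cases averaged 10.56 ± 0.24 and controls 10.02 ± 0.23 (SD, n = 4 each). The difference was 0.54 (0.23 to 0.85, adjusted p = 0.736) over all 8 pups, a fold of 1.46, and 0.66 (0.38 to 0.93, adjusted p = 0.101) without D52. Its second probe set differed by 0.47 over all 8 pups and by 0.59 without D52.

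Adam19 (meltrin beta), a close relative that acts on neuregulins and is needed for heart valve and septum formation in mice, read 10.52, 10.82, 10.48 and 10.26 in cases, against 10.38, 9.97, 10.32 and 10.19 in controls. The first 3 cases were above every control and D52 lay within them. The difference was 0.30 (0.024 to 0.58, adjusted p = 0.736) over all 8 pups and 0.39 (0.12 to 0.66, adjusted p = 0.240) without D52, and its second probe set differed by 0.19 over all 8 pups and 0.29 without D52.

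Adam8, found on neutrophils, macrophages and other leukocytes, read 6.84, 6.40, 6.56 and 7.28 in cases, against 7.18, 6.90, 7.11 and 7.34 in controls. All cases but D52 were below every control, and D52 was near the top of the control range. The difference was -0.36 (-0.75 to 0.029, adjusted p = 0.736) over all 8 pups and -0.53 (-0.82 to -0.24, adjusted p = 0.173) without D52, and -0.24 without D34.

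The general sheddases stayed close to 0. Adam10, which cleaves Notch receptors and cadherins, read 10.90, 10.89, 11.03 and 11.00 in cases, against 10.99, 11.04, 11.02 and 11.00 in controls. Its groups overlapped and its probe sets differed in sign, with a difference of -0.058 (-0.19 to 0.075, adjusted p = 0.810) over all 8 pups and -0.073 (-0.23 to 0.080, adjusted p = 0.678) without D52. Adam17, which releases TNF and EGF receptor ligands, read 9.68, 9.69, 9.79 and 9.61 in cases, against 9.60, 9.74, 9.68 and 9.64 in controls. Those groups also overlapped, and the difference was 0.026 (-0.12 to 0.17, adjusted p = 0.923) over all 8 pups and 0.053 (-0.10 to 0.21, adjusted p = 0.778) without D52, with -0.0069 when case D48 was left out. Adam9, Adam15, Adam23 and Adam33 differed by -0.065 to 0.031, with interval ends no farther from 0 than -0.20 and 0.17. Without D52 they differed by -0.100 to 0.027. Adam28, a lymphocyte ADAM below the floor, read between 5.06 and 5.54 and differed by -0.16 over all 8 pups and -0.18 without D52.

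The ADAMTS family held both higher and lower genes, 5 of its 9 with an unadjusted p under 0.05, against 6.29% of all genes. On the higher side, Adamts12, which cuts cartilage oligomeric matrix protein, read 9.15, 9.71, 9.18 and 8.90 in cases, against 8.91, 8.64, 8.97 and 8.77 in controls. Again the first 3 cases lay above every control and D52 among them. The difference was 0.41 (0.072 to 0.76, adjusted p = 0.736) over all 8 pups and 0.52 (0.20 to 0.85, adjusted p = 0.194) without D52, folds of 1.33 and 1.44, and it was 0.26 without D34.

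Adamts9, a versican-cutting enzyme also needed for cilia, read 10.29, 10.31, 10.20 and 10.16 in cases, against 9.98, 10.12, 10.01 and 9.87 in controls. All 4 cases, D52 included, lay above every control, and Adamts9 was the one member of 31 with that pattern (1.38% of all genes had it). The difference was 0.24 (0.084 to 0.41, adjusted p = 0.736) over all 8 pups and 0.27 (0.094 to 0.45, adjusted p = 0.216) without D52. Its 2 other probe sets above the floor did not show that pattern: one differed by 0.25, with D52 at 9.33 under control D50 at 9.47, and one by 0.0023. Adamts1, another versicanase, read 10.93, 11.20, 11.13 and 10.70 in cases, against 11.10, 10.62, 10.95 and 10.86 in controls. Its groups overlapped, and its difference was 0.11 (-0.18 to 0.39, adjusted p = 0.833) over all 8 pups, 0.20 (-0.063 to 0.47, adjusted p = 0.50) without D52 and -0.037 with array weights.

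On the lower side, Adamts5, the main aggrecanase of mouse cartilage and also active on versican, read 7.59, 6.98, 7.73 and 7.97 in cases, against 8.16, 8.12, 8.03 and 8.12 in controls. All 4 cases lay below every control, and it was the one member of 31 with that pattern (2.57% of all genes had it). Cases averaged 7.57 ± 0.42 and controls 8.11 ± 0.053 (SD, n = 4 each). The difference was -0.54 (-0.93 to -0.15, adjusted p = 0.736) over all 8 pups and -0.67 (-1.03 to -0.32, adjusted p = 0.167) without D52, and its other probe sets above the floor differed by -0.33 and -0.30 over all 8 pups. In the first of these other probe sets the groups overlapped, with D52 at 7.79 above control D58 at 7.77. In the second all 4 cases again lay below every control. Without D34 the difference of the brightest probe set was -0.34.

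Adamts8, a lung-expressed ADAMTS first described as an inhibitor of vessel growth, read 7.64, 6.84, 7.93 and 8.06 in cases, against 8.04, 8.45, 8.17 and 8.24 in controls. The first 3 cases were below every control and D52 lay just inside their range. The difference was -0.61 (-1.12 to -0.094, adjusted p = 0.736) over all 8 pups and -0.75 (-1.26 to -0.25, adjusted p = 0.224) without D52, with 0.656 and 0.593 of the control level. It was -0.35 without D34. Adamts15, a versican and aggrecan protease, read 7.26, 7.67, 7.49 and 7.86 in cases, against 7.85, 8.13, 8.01 and 7.98 in controls. Here too D04, D34 and D48 were below every control, and D52 was marginally above the lowest. The difference was -0.42 (-0.69 to -0.15, adjusted p = 0.736) over all 8 pups and -0.52 (-0.76 to -0.27, adjusted p = 0.137) without D52.

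By the RefSeq gene table, Adamts8 and Adamts15 are neighbours with 0 protein-coding genes between them, and both were lower in cases. Adamts1 and Adamts5 are likewise neighbours with 0 genes between, and their differences had opposite signs. Of the remaining ADAMTS genes, Adamts3 (a procollagen amino-propeptidase) differed by 0.030 (-0.14 to 0.20, adjusted p = 0.923) over all 8 pups and 0.032 (-0.16 to 0.23, adjusted p = 0.890) without D52. Adamts4 (an aggrecanase) differed by -0.11 (-0.27 to 0.056, adjusted p = 0.741) over all 8 pups and -0.15 (-0.32 to 0.029, adjusted p = 0.461) without D52. Adamts10, which associates with fibrillin microfibrils, differed by 0.15 (-0.30 to 0.61, adjusted p = 0.847) over all 8 pups and 0.30 (-0.13 to 0.73, adjusted p = 0.534) without D52, with case D34 and control D40 high in their groups.

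Fap (fibroblast activation protein), a serine protease of activated fibroblasts that cuts denatured collagen after proline, passed the intensity floor only through the controls, so its difference is given as a description. It read 6.16, 4.83, 6.65 and 7.04 in cases, against 7.15, 6.71, 7.32 and 7.61 in controls. D04, D34 and D48 lay below every control, D34 lowest by far, and D52 lay within the control range. Cases averaged 6.17 ± 0.96 and controls 7.20 ± 0.38 (SD, n = 4 each), so the spread between cases was nearly as large as the difference. The difference was -1.03 (-1.94 to -0.12, adjusted p = 0.736) over all 8 pups and -1.32 (-2.18 to -0.45, adjusted p = 0.217) without D52, but -0.58 without D34. D34 and D04 read below the intensity floor.

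Counting groups that do not overlap, without D52 Mmp2, Adam12, Adam19, Adamts9 and Adamts12 had all 3 cases above every control (5 of 31, against 5.71% of all genes). All 3 cases lay below every control for 9 of 31, or 8 of 30 without Fap (7.96% of all genes): Timp1, Timp2, Adam8, Adam33, Adamts4, Adamts5, Adamts8, Adamts15 and Fap. By role, the median difference over all 8 pups was -0.11 for 4 secreted MMPs, -0.19 for 3 membrane MMPs, -0.072 for 5 inhibitors, 0.014 for 9 ADAMs and 0.030 for 9 ADAMTS genes. Without D52 these medians were -0.13, -0.24, -0.12, 0.0090 and 0.032.

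RefSeq's mouse promoter table (GRCm38.p6) held 27 transcription starts for 23 of the members, 22 of them for 19 tested members. The 250 bases before each start were searched on both strands for the AP-1 motif TGAGTCA and the ETS motif of the PEA3 type, AGGAAG. AP-1 letters stood in 1 of 22 starts of tested members (4.55%), against 4.46% of 32851 promoters in the table. That 1 was a start of Adam19. PEA3 letters stood in 9 of 22 (40.9%), against 29.5% of all promoters. A short motif is met often by its length alone, and a match is a description of letters, not of binding.

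The Adam19 and Adamts12 stretches are shown because they hold a motif and both genes were higher in cases. Those of Mmp14 and Timp1 are shown because they hold a motif and both genes were lower without D52. In that order the stretches lie at chr11:46055734-46055983, chr15:11064523-11064772, chr14:54431348-54431597 and chrX:20869916-20870165, all on the plus strand, and run 5′ to 3′ to the base before the start. Capitals mark the AP-1 motif in Adam19, PEA3 letters on either strand in the other 3. Adam19 has 3 starts in the table, and the AP-1 letters precede the one shown. Adamts9, Reck, Mmp23 and Adam8, which also stood out in at least 1 fit, had starts in the table with neither motif. PEA3 letters also preceded starts of Mmp8, Adam10, Adam17, Timp3 and Timp4, which stood out in neither fit.
Adam19: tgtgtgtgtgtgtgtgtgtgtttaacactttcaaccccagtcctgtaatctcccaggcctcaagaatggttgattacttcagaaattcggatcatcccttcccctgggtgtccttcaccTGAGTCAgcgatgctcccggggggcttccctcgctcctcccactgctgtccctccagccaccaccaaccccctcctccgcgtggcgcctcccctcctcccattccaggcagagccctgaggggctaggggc
Adamts12: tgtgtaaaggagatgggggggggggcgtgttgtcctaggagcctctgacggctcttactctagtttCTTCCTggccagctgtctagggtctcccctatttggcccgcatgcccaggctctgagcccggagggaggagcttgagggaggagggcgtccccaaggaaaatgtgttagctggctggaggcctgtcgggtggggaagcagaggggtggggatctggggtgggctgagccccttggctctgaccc
Mmp14: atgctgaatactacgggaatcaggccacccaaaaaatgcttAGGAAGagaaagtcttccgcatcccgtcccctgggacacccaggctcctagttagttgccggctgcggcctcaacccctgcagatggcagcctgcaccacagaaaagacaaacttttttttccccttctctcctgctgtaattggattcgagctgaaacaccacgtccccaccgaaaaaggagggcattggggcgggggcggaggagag
Timp1: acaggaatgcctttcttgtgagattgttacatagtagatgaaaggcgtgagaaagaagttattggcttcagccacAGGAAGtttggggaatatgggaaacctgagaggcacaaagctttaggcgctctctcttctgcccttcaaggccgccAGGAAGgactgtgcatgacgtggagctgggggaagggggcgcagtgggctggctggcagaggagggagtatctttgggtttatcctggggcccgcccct

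AP-1 letters also stood in promoters of Mmp3, Mmp12 and Mmp13, which makes 4 of 27 starts (14.8%) over all members. These 3 genes are neighbours in the MMP cluster, where by gene order Mmp13 and Mmp12 are adjacent and Mmp1b lies between Mmp12 and Mmp3. The motif is shown in capitals, in 30 bases of the plus strand at chr9:7445765-7445794 for Mmp3, chr9:7347319-7347348 for Mmp12 and chr9:7272468-7272497 for Mmp13 (GRCm38.p6). All 3 genes lay below the intensity floor in these lungs.
Mmp3: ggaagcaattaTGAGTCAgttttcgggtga
Mmp12: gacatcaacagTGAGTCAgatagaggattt
Mmp13: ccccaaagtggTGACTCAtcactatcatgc

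Other genes of the protease system were measured beside the members, and their counts at an unadjusted p under 0.05 stand against 6.29% of all genes over all 8 pups and 12.7% without D52. Of 35 other genes of the metzincin protease families 12 were tested, and 8 of the rest had no probe set. Of those tested 0 had an unadjusted p under 0.05 over all 8 pups (median difference -0.033), against 2 without D52 (median -0.085). Mmp24, among those tested, passed the floor only through the controls (mean 6.49 in cases and 6.55 in controls). Mmp7 (matrilysin) differed by -0.18, the dendritic cell protease Adamdec1 by 0.77 and Astl by -0.15. Adamdec1 read 6.99, 9.21, 7.75 and 6.89 in cases, against 6.95, 6.82, 7.10 and 6.89 in controls, so D34 and D48 were high and D04 and D52 lay inside the control range. Among the catalytically inactive ADAMTS-like proteins and papilin 5 of 7 were tested, all with negative differences (median -0.16, and -0.19 without D52). Adamtsl2, which binds fibrillin and latent TGF-beta binding protein, differed by -0.19 (1 of 5 at p under 0.05), Adamtsl4 by -0.16 and Adamtsl3 by -0.30.

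Of 22 regulators of metalloproteases 18 were tested, with a median of -0.025 and 0 at p under 0.05, and -0.043 and 2 without D52. The procollagen C-proteinase enhancers Pcolce and Pcolce2 differed by -0.34 and -0.22, and the testican Spock2 by -0.52. In the plasminogen system 6 of 11 were tested (median 0.085, and 0.051 without D52, 0 at p under 0.05 in both fits). The plasminogen receptor Plgrkt differed by 0.20, tissue plasminogen activator Plat by -0.14 and the serpin Serpinf1 by 0.12. Other matrix proteases and their inhibitors had 13 of 16 tested, a median of -0.037 and 1 at p under 0.05, and -0.057 and 4 without D52. The collagen-cutting cathepsin Ctsk differed by -0.23, cystatin C (Cst3) by -0.15 and Htra3 by -0.24.

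The substrates of these enzymes mostly had negative differences. Of 20 matrix substrates 16 were tested, 13 with negative differences and a median of -0.19, and 7 had an unadjusted p under 0.05. Over all genes 7076 of 12856 differences were negative and 6.29% had such a p. Without D52 the substrates' median was -0.24 and their count 9, against 12.7% of all genes. The collagen chains Col1a1 and Col3a1 differed by -0.54 and -0.22 and elastin (Eln) by -0.35. Of the 7 with an unadjusted p under 0.05, versican (Vcan) was higher in cases, by 0.19, and the rest were lower. Of the 9 without D52, Vcan was again higher, by 0.21, and the rest were lower. Without D52 the small proteoglycan Dcn fell by 1.74 (limma adjusted p = 0.0449), the one substrate past the adjusted threshold.

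Markers of cell types were read beside the members. The fibroblast list shares Col1a1, Col1a2, Col3a1, Lum, Dcn and Fn1 with the matrix substrates, so these lists are not separate observations. Fibroblast markers, 9 of 10 tested, had a median difference of -0.24, with 7 below 0, and -0.32 without D52. Their list median relative to the control mean was -0.29, -0.49, -0.22 and -0.02 in D04, D34, D48 and D52, against -0.052 to 0.094 in controls. Col1a1, Col3a1 and Col1a2 led by p, the last at -0.24. The 2 above 0 were Pdgfra at 0.56 (0.85 without D52) and Tcf21 at 0.048. Pdgfra read 10.75, 12.58, 11.15 and 10.32 in D04, D34, D48 and D52, against 10.58 to 10.73 in controls. Smooth muscle markers all had negative differences (8 of 8, median -0.34, and -0.40 without D52), led by Actg2 at -0.52, Tagln at -0.34 and Myh11 at -0.34. Their list medians in the same pups were -0.45, -0.66, -0.13 and -0.15, against -0.033 to 0.027 in controls.

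Markers of heart, skeletal muscle and mesothelium, tissues that border the lung, were also read. Heart and skeletal muscle markers, 9 of 10 tested and 8 of 9 below 0, had a median of -0.75, and -1.10 without D52. Their list medians were -0.66, -2.13, -0.49 and 0.28 in D04, D34, D48 and D52, against -0.16 to 0.33 in controls. Acta1, Tnnt2 and Actc1 differed by -0.50, -0.85 and -0.87. Mesothelium markers, 8 of 8 tested and all below 0, had a median of -0.49, and -0.74 without D52. Their list medians were -0.52, -1.18, -0.41 and 0.10 in the same cases, against -0.27 to 0.29 in controls. Rspo1, Upk3b and Upk1b differed by -0.78, -0.60 and -0.35. Wt1, also in the mesothelium list, passed the intensity floor only through the controls (mean 6.36 in cases and 6.82 in controls). Its place among those below 0 therefore supports nothing. D34, the case with most members outside the control range, was also the one lowest in these marker lists. Their part in the results for the members was not tested.

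Leukocyte markers bear on Mmp8, Mmp9, Mmp12 and Adam8, which those cells make. Macrophage markers, 9 of 10 tested, had a median of -0.073 (-0.0084 without D52), with list medians of -0.16, 0.032, -0.11 and 0.15 in the cases, against -0.076 to 0.047 in controls. Within the list Chil3 differed by 1.05, Csf1r by -0.18 and Cd68 by 0.31. Neutrophil markers, 7 of 10 tested, had a median of -0.12 (-0.11 without D52), with list medians of 0.011, -0.21, -0.25 and -0.0096 in the cases, against -0.10 to 0.10 in controls. Cxcr2, Ltf and Camp differed by -0.18, -0.49 and -0.12, and Elane and Mpo lay below the floor.

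Cartilage markers bear on the aggrecanases. Only 3 of 10 were tested (median -0.12, and -0.19 without D52), and Acan, aggrecan itself, Matn1, Matn3, Col9a2, Hapln1, Cnmd and Comp lay below the floor. Col2a1, Col9a1 and Col11a2 differed by 0.29, -0.12 and -0.12. Of these, Col11a2 passed the floor only through the controls (mean 6.48 in cases and 6.59 in controls). Endothelial markers, 8 of 8 tested, had a median of -0.051 (-0.064 without D52), with Kdr at -0.16, Tie1 at -0.23 and Tek at -0.093. Lung epithelial markers, 9 of 10 tested, had a median of -0.17 in both fits, with Foxj1 at -0.34, Sftpd at -0.17 and Scgb1a1 at -0.29. RNA quality was read from the 3′ minus 5′ probe sets of Actb, which lay between 0.32 and 0.43 in cases and between 0.36 and 0.40 in controls. For Gapdh the same difference lay between -0.044 and 0.15 in cases, with D34 and D52 below every control, and between 0.0078 and 0.18 in controls.

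**Figure D4:**
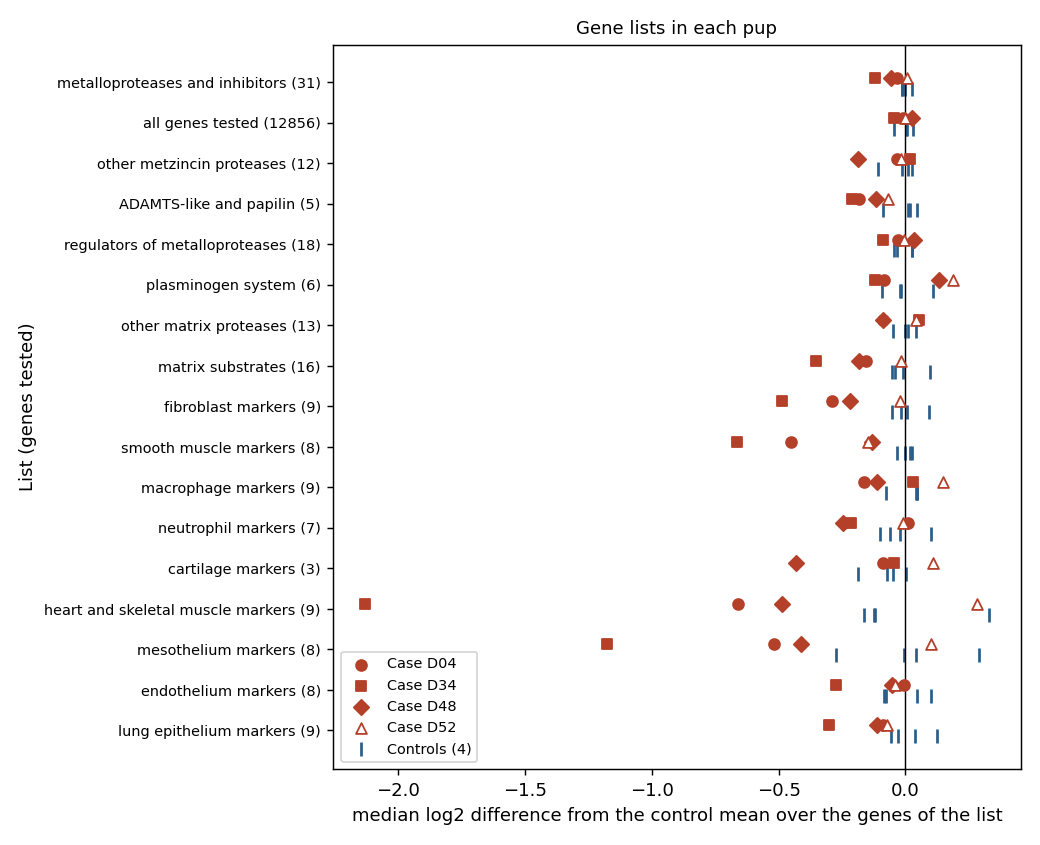
Median log2 difference from the control mean over the genes of each list (horizontal axis), for each case (red symbols) and the 4 controls (blue ticks), with the number of genes tested in brackets. For the metalloproteases and inhibitors, whose members lie on both sides of 0, the medians are -0.035, -0.12, -0.055 and 0.0043 in Cases D04, D34, D48 and D52, against -0.012 to 0.025 in controls, while heart and skeletal muscle markers reach -2.13 and mesothelium markers -1.18 in Case D34.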

How the data were processed

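RNA of 8 pup lungs was measured on Affymetrix arrays. The deposited tables hold 1 linear intensity per probe set and pup. The authors also deposited log2 ratios for one pair, equal to D04 over D02 in 45101 of 45101 probe sets within 1e-06. Per the submitters' processing notes affy, an R package, was used. For summary and normalization the method is not stated by the labels or file headers. Precision is limited by the number of arrays, and p-values measure the spread between these pups.

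Intensities were taken to log2. Leaving out 64 control probe sets, 34945 had 1 gene symbol in the platform annotation, 932 several and 9160 none. Probe sets with a mean of at least the 40th percentile were kept, the brightest per gene, and for 14 members with several, signs differed in 3 (Timp3, Adam10 and Adam15). Limma 3.58.1 under R 4.3.3 compared cases and controls (lmFit, then eBayes). P-values were adjusted over 12856 genes by Benjamini and Hochberg, with a threshold of 0.05, and the fit was tested on simulated data. Fgf18 was compared by an exact permutation test.

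Members and lists were chosen with earlier results of these data known. Values in every pup are given for 17 fixed members and those with an unadjusted p under 0.05 in either fit, 25 in all. Of each list up to 3 genes with the smallest p are named. Case D52 was left out in a second fit because of its Fgf18 level, a choice also made with results known. Alternatives changed the filter, the normalization between arrays, the choice of probe set, the moderation, array weights, sex and a D02 and D04 pair, and left out each array. Promoters came from RefSeq (GRCm38.p6), and Python 3.11 scripts made the tables and plots.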

Additional observations from a re-analysis of the deposited data

Results flagged for a closer look

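Within groups of 4 pups, 1 pup's gap to the nearest other pup was compared with the whole range of its group by Dixon's ratio, against its critical value for 4 samples. Of 72 groups of the 36 members measured, 4 exceeded it, and chance alone would exceed it in about 1 in 20 groups. Mmp13, below the intensity floor, was lowest in case D48 at 3.53, against 3.74 to 3.78 in the other cases (ratio 0.875). Adamts4 was highest in case D52 at 6.86, against 6.69 to 6.72 in the other cases (ratio 0.848). In controls, pup D40 was highest for Mmp11 at 9.36, against 8.80 to 8.89 in the other controls (ratio 0.837). The same pup was highest for Adamts10 at 10.20, against 9.68 to 9.74 (ratio 0.887).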

How the results depend on the processing

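The adjusted count over all 8 pups was 0 under every alternative run. That was 0 of 36 members with no floor, 0 of 21 with a floor at the 60th percentile and 0 of 31 otherwise. The unadjusted count of 8 was 14 with array weights, and between 5 and 14 when 1 array was left out: 5 without control D40 or D58 and 14 without case D52. Other settings gave 7 or 8, which was 7 of 21 with the floor at the 60th percentile and 8 of 36 with no floor. Without D52 the adjusted count was 4 with array weights, which in that fit were 2.25 for D04, 0.467 for D48 and 0.296 for D34. Those 4 were Adam12 (0.57, adjusted p = 0.0220), Adamts5 (-0.55, adjusted p = 0.0277), Adamts15 (-0.61, adjusted p = 0.0162) and Fap (-1.18, adjusted p = 0.0353). It was 0 under the other alternatives, and the unadjusted count of 14 ranged from 11, with sex as a covariate, to 15. Of 350 values for the 25 named members under alternatives, 344 kept their direction. Many of these could not turn. A changed floor, other moderation or the D02 and D04 pair left a difference over all 8 pups as it was, so the count is no measure of robustness. The 6 that turned were Mmp8 (0.074), Mmp9 (0.025), Timp3 (0.064) and Adamts1 (-0.037) with array weights, Mmp9 without control D02 and Adam17 without case D48. With 1 array left out, Mmp9 ranged from -0.133 to 0.029 and Adam17 from -0.0069 to 0.053. The cause was not tested. The difference in Fgf18 lay between 2.18 and 3.66 when 1 array was left out. No paired analysis was possible because no label links a pup to its litter, and with D02 and D04 set as 1 pair the counts were 8 over all 8 pups and 13 without D52. Members near the floor, such as Adam8, Mmp9 and Fap, have little signal over background, and those below it were not tested.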
